A study of Homo sapiens with 8 samples.

Results

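The 10 genes DUSP1, DUSP4, DUSP5, DUSP6, DUSP7, DUSP10, DUSP14, DUSP16, SPRY2 and SPRY4 were examined as a set of feedback inhibitors of mitogen-activated protein kinase (MAPK) signaling in Hs578T breast cancer cells exposed to hyperglycemia. They were chosen by symbol, and all 10 are among the 21077 rows of the table and among the 15570 rows that reached 0.5 CPM in 2 or more libraries. Exposure lasted 48 hours, at 25 mM glucose (high glucose) or at 5 mM glucose (low glucose, the control), with 4 libraries of total RNA per group. Per the methods of the study, cells were first conditioned in low glucose and then cultured without serum in both arms. In some experiments the study added mannitol to the control to match osmolarity, and it reports no difference in the phenotypes it examined. The labels of these libraries do not mention mannitol, and osmolarity was not tested apart from glucose here. Hs578T is an established breast cancer line, labeled ER negative, with mesenchymal features and an activating mutation of HRAS, and a single line limits what the comparison can represent. Values are normalized signal, taken as CPM (counts scaled to a common library size) with TMM factors, and are not corrected for transcript length, so levels were compared within a gene and not between genes.

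The MAPK enzymes ERK, JNK and p38 relay signals from receptors and from stress to the nucleus, and are active only while a threonine and a tyrosine of their activation loop are phosphorylated. Dual-specificity phosphatases of the DUSP family remove these phosphates. DUSP1, DUSP4 and DUSP5 act in the nucleus, DUSP6 and DUSP7 act on ERK in the cytoplasm, DUSP10 and DUSP16 prefer JNK and p38, and DUSP14 is a small atypical family member without the kinase-binding domain of the others. Sprouty proteins such as SPRY2 and SPRY4 act upstream, between receptor tyrosine kinases and RAS or RAF. Many of these genes are themselves induced by ERK, which makes them feedback inhibitors and, as transcripts, commonly used readouts of the pathway.

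In all, 8 members passed an FDR of 0.05, with 5 higher (DUSP6, DUSP14, SPRY4, DUSP16 and DUSP4) and 3 lower (DUSP1, DUSP10 and SPRY2) in high glucose, whereas DUSP5 and DUSP7 did not pass. The comparison moved most of the transcriptome, so that 72.9% of all genes tested passed, 35.7% as higher and 37.2% as lower. A count of 8 among 10 members is therefore close to the background. The median log2 fold change was 0.15 over the members and 0.00 over all genes, on the log2(CPM + 1) scale and as high minus low glucose, which is the scale of every fold change given here. The groups did not overlap for 8 members, as for 66.7% of all genes. Another count, of members that were called and at least 2-fold higher, came to 3 (DUSP6, DUSP14 and SPRY4), against 8.57% of all genes. It covers rises only, and the lowest log2 fold change of a member was -0.83. The difference was not tested, and the members were chosen with earlier results of these data known. The share of all genes also includes genes of low signal, whose changes the pseudocount understates. Directions of small changes depended on the scaling. When each library was rescaled to the same total, the median of all genes moved to 0.19, the calls over all genes were 7327 higher and 4349 lower in place of 5553 and 5797, and 6 members were called higher and 2 lower. In bulk RNA, fewer cells that express a gene and less of its RNA per cell cannot be told apart.

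**Figure D1:**
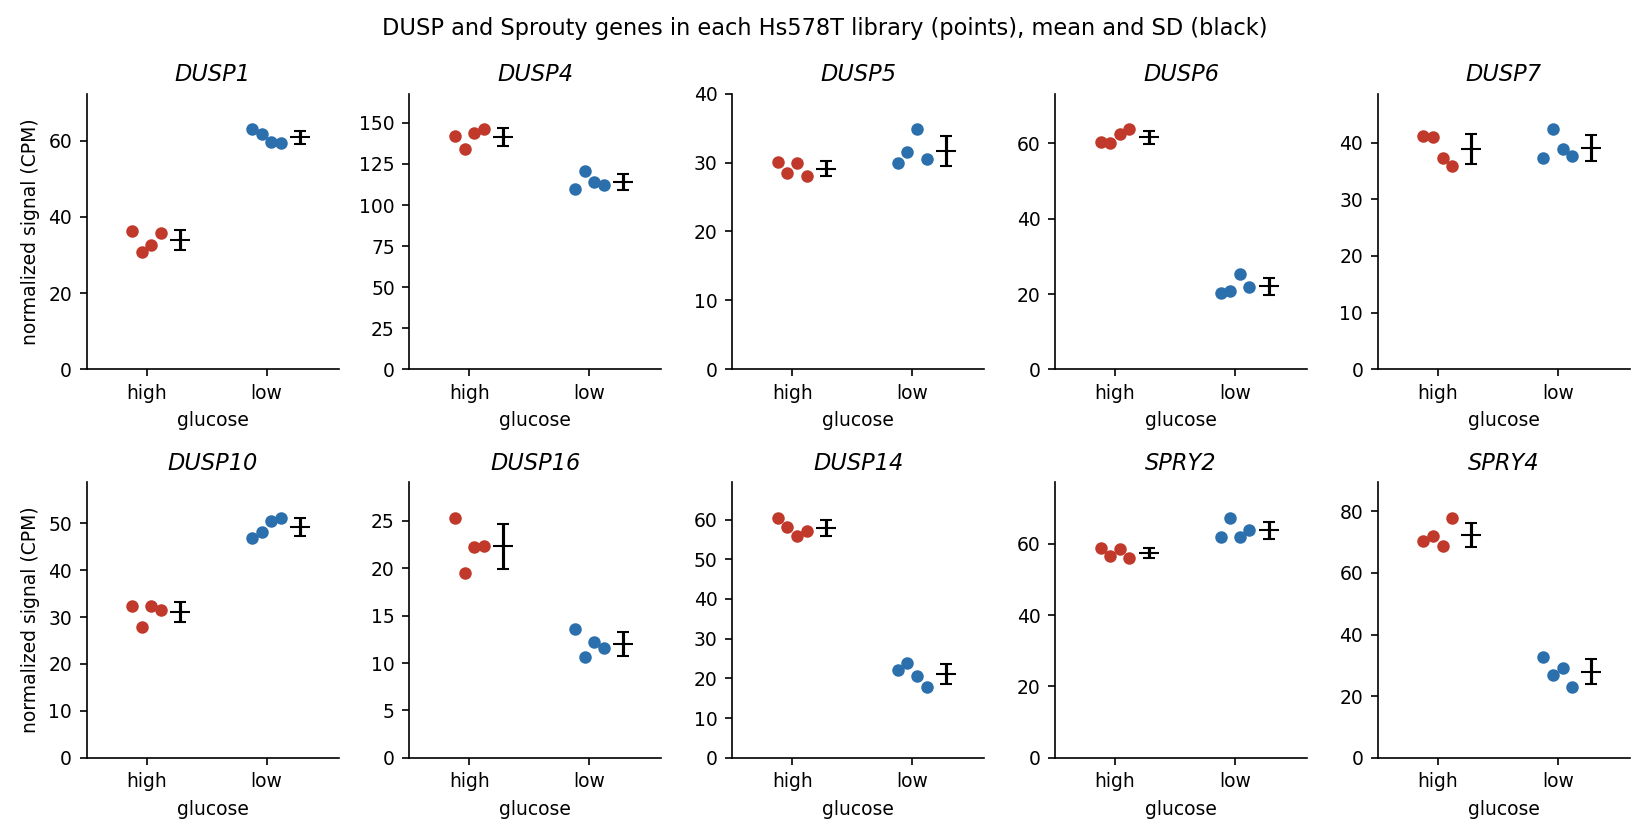
Normalized signal (CPM, linear axes from 0) of the 10 genes in each high-glucose (red) and low-glucose (blue) library (black, group mean with SD). DUSP6 averaged 61.6 CPM in high and 22.1 CPM in low glucose, and the groups overlapped for DUSP5 and DUSP7.

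The ERK phosphatase DUSP6 had the largest rise among the members. It was at 60.3, 60.1, 62.5 and 63.7 CPM in the 4 high-glucose libraries, against 20.3, 20.9, 25.2 and 21.8 CPM in the low-glucose libraries. Every high-glucose library lay above every low-glucose library, with a gap far wider than the spread within either group. The means were 61.6 ± 1.76 CPM in high and 22.1 ± 2.20 CPM in low glucose (SD, n = 4 each), 2.79 times as high, with a log2 fold change of 1.44 ± 0.0683 SE (limma, adjusted p = 3.40e-11), above that of 96.9% of the genes tested. DUSP6 lies on chromosome 12 from 89347235 to 89352501 (RefSeq annotation of GRCh38.p14), where RefSeq also lists a read-through transcript with the neighboring gene POC1B. POC1B itself averaged 30.7 ± 3.05 CPM in high and 32.8 ± 1.76 CPM in low glucose (SD, n = 4 each), and its groups overlapped. DUSP7, the other cytoplasmic ERK phosphatase, on chromosome 3 from 52048919 to 52056571, was at 41.1, 40.9, 37.3 and 35.8 CPM in high glucose, against 37.3, 42.3, 38.9 and 37.6 CPM in low glucose. The groups overlapped, and the difference did not pass (log2 fold change -0.01 ± 0.0648 SE, adjusted p = 0.893). DUSP7 passed as higher only when libraries were rescaled to the same total (0.23, adjusted p = 0.00499, with 0.00499 to 0.937 over its 15 alternatives).

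DUSP14, the atypical phosphatase, rose to nearly the same extent as DUSP6. Its values were 60.4, 58.1, 55.9 and 57 CPM in high glucose, against 22.0, 23.8, 20.6 and 17.8 CPM in low glucose, without overlap. The means of 57.9 ± 1.92 CPM in high and 21.1 ± 2.55 CPM in low glucose (SD, n = 4 each) gave a ratio of 2.75 and a log2 fold change of 1.42 ± 0.0774 SE (limma, adjusted p = 1.73e-10). The gene lies on chromosome 17 from 37488566 to 37513498.

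The Sprouty genes moved apart. SPRY4, on chromosome 5 from 142310430 to 142325021, was at 70.4, 72.1, 68.7 and 77.8 CPM in high glucose, against 32.7, 27.0, 29.1 and 23.0 CPM in low glucose. All high-glucose libraries were above all low-glucose libraries, and the low-glucose group was the more variable in proportion to its mean. The means were 72.2 ± 3.96 CPM in high and 27.9 ± 4.04 CPM in low glucose (SD, n = 4 each), 2.59 times as high (log2 fold change 1.35 ± 0.0847 SE, limma adjusted p = 9.30e-10). The RefSeq annotation places a noncoding transcript, SPRY4-IT1, inside SPRY4, and its reads could have been counted with those of the gene. SPRY2, on chromosome 13 from 80335976 to 80341126, was at 58.7, 56.6, 58.4 and 56.0 CPM in high glucose, against 62.0, 67.2, 62.0 and 63.8 CPM in low glucose. The groups did not overlap, but their ends were 58.7 and 62.0 CPM. SPRY2 passed as lower, by a small amount (0.901 times the low-glucose mean, log2 fold change -0.15 ± 0.0477 SE, limma adjusted p = 0.0116). That call was lost with quantile normalization (-0.06, adjusted p = 0.300), and with libraries rescaled to the same total the value turned to 0.09 without passing (adjusted p = 0.0930), with adjusted p from 0.00965 to 0.300 over its 15 alternatives.

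The phosphatases that prefer JNK and p38 changed in opposite directions. DUSP16, on chromosome 12 from 12473282 to 12562863, rose, at 25.3, 19.5, 22.2 and 22.3 CPM in high glucose, against 13.6, 10.6, 12.2 and 11.6 CPM in low glucose (means 22.4 ± 2.36 and 12 ± 1.28 CPM in high and low glucose, SD, n = 4 each). Its log2 fold change was 0.85 ± 0.0985 SE (limma, adjusted p = 1.33e-06), and it was the member with the fewest estimated reads, down to 93 in a library. DUSP10, on chromosome 1 from 221701424 to 221742089, fell, at 32.3, 27.9, 32.4 and 31.6 CPM in high glucose, against 46.9, 48.2, 50.4 and 51.1 CPM in low glucose. The means were 31.0 ± 2.15 CPM in high and 49.2 ± 1.91 CPM in low glucose (SD, n = 4 each), with a log2 fold change of -0.65 ± 0.0625 SE (limma, adjusted p = 1.51e-07). Neither gene had overlapping groups, and both kept their direction and their call under all 15 alternatives tried, although DUSP10 came to -0.41 with libraries rescaled to the same total.

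Among the nuclear phosphatases, DUSP1 fell, DUSP4 rose and DUSP5 did not pass. DUSP1, an immediate early gene induced by growth factors and by stress, was at 36.4, 30.8, 32.7 and 35.7 CPM in high glucose, against 62.9, 61.7, 59.6 and 59.3 CPM in low glucose. No high-glucose library came near the low-glucose group. Its means of 33.9 ± 2.62 CPM in high and 60.9 ± 1.71 CPM in low glucose (SD, n = 4 each) gave the most negative log2 fold change of the members, -0.83 ± 0.0606 SE (limma, adjusted p = 5.72e-09). It lies on chromosome 5 from 172768096 to 172771195. DUSP4, on chromosome 8 from 29333064 to 29350684, was at 142, 134, 144 and 146 CPM in high glucose, against 110.0, 121, 114 and 112 CPM in low glucose. The increase was small but wider than the spread of the replicates, to 142 ± 5.13 CPM in high glucose, against 114 ± 4.57 CPM in low glucose (SD, n = 4 each, log2 fold change 0.31 ± 0.0429 SE, limma adjusted p = 8.13e-06). With libraries rescaled to the same total it came to 0.55. DUSP5, which acts on ERK alone, on chromosome 10 from 110497907 to 110511533, was at 30.1, 28.5, 29.9 and 28 CPM in high glucose, against 29.9, 31.6, 34.8 and 30.5 CPM in low glucose. Its groups overlapped at their ends, and the log2 fold change of -0.12 ± 0.0658 SE did not pass (limma, adjusted p = 0.120, with 0.0831 to 0.771 over its 15 alternatives).

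**Figure D2:**
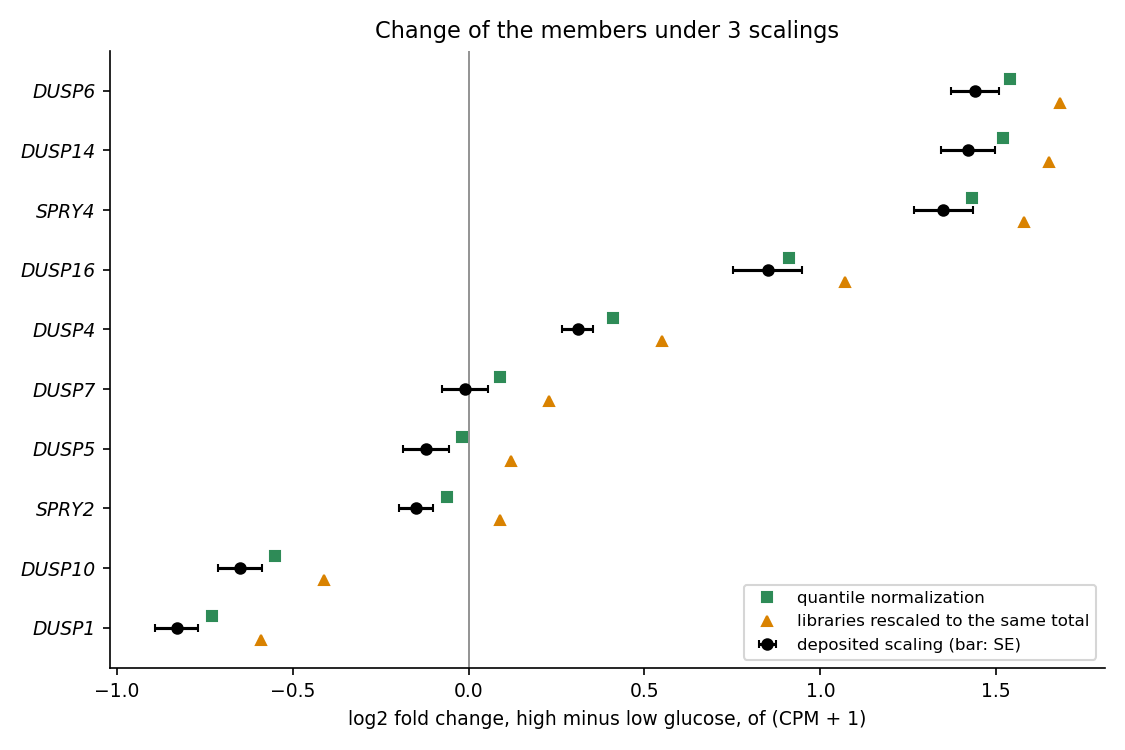
Log2 fold change of each member (log2(CPM + 1), high over low glucose) with the deposited scaling (black, bar as SE), quantile normalization (green) and libraries rescaled to the same total (orange). DUSP7, DUSP5 and SPRY2 have values on both sides of 0, and DUSP6, at 1.44 with the deposited scaling, is positive under all 3.

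Since a ratio of 2 genes within a library does not depend on how the library was scaled, members of like role were also set against each other. The log2 ratio of DUSP6 over DUSP7 was 0.55, 0.56, 0.74 and 0.83 in high glucose, against -0.87, -1.02, -0.62 and -0.79 in low glucose. The sign of the ratio thus differed between the groups in every library, with a difference of the means of 1.50. For SPRY2 over SPRY4 it was -0.26, -0.35, -0.23 and -0.47 in high glucose, against 0.92, 1.32, 1.09 and 1.47 in low glucose, a difference of -1.53. For DUSP10 over DUSP16 it averaged 0.48 ± 0.0841 in high and 2.04 ± 0.181 in low glucose (SD, n = 4 each), a difference of -1.56. For DUSP4 over DUSP5 it averaged 2.28 ± 0.0669 in high and 1.85 ± 0.0977 in low glucose (SD, n = 4 each), a difference of 0.44. None of these 4 ratios overlapped between the groups, which follows largely from the member values given above and is not separate evidence. The share of all gene pairs without overlap was not computed, and 66.7% of single genes did not overlap. The ratios were not tested, and their levels (unlike their differences) also hold the lengths of the transcripts.

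**Figure D3:**
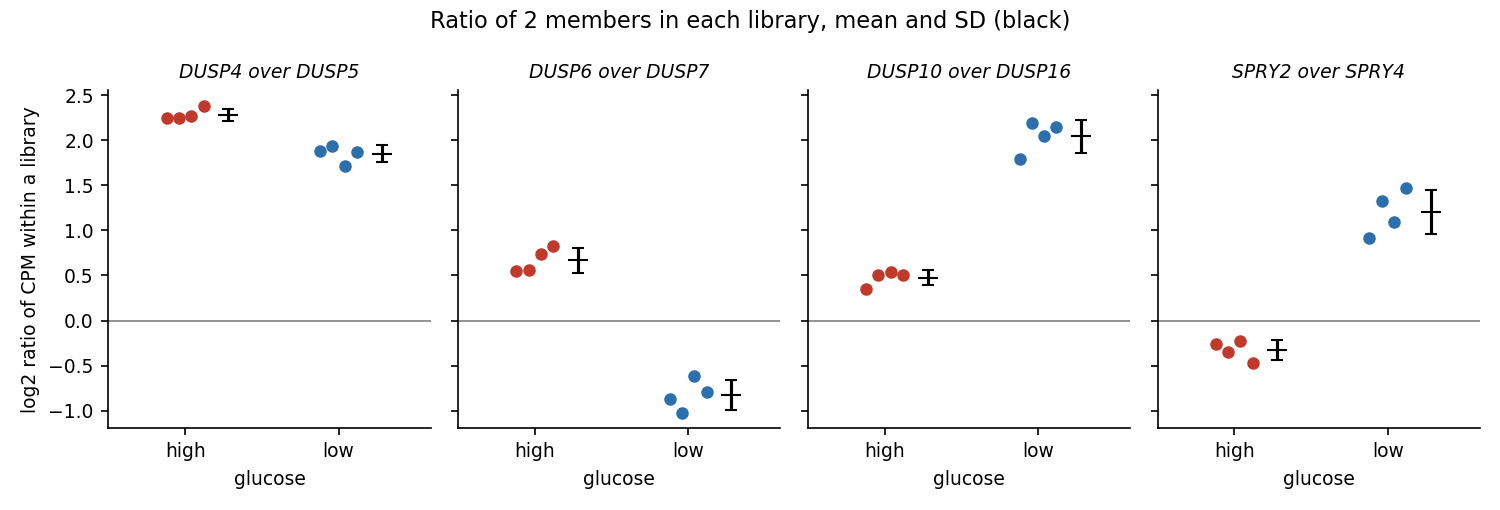
Log2 ratio of the CPM of 2 members within each high-glucose (red) and low-glucose (blue) library (black, group mean with SD). DUSP6 over DUSP7 averaged 0.67 in high and -0.82 in low glucose, and SPRY2 over SPRY4 averaged -0.33 in high and 1.20 in low glucose.

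The sequences before the start sites of the member with the largest fall (DUSP1) and of the 3 members that rose at least 2-fold are shown, since genes that moved together could share letters there. They are the 250 bases upstream of a start site from the RefSeq promoters of GRCh38.p14, 5′ to 3′ on the strand of the gene. Of the 10 members, 8 had an entry, with 11 windows (3 of SPRY2 and 2 of DUSP10). DUSP4 and DUSP5 had none, so statements on member windows do not cover them. The windows of DUSP14 and SPRY4 lie within the gene bounds given above, so they precede an internal start and not the outer one. Capitals mark TGACG on either strand, the core of the cAMP response element (CRE).
DUSP1, chr5:172771196-172771445, minus strand: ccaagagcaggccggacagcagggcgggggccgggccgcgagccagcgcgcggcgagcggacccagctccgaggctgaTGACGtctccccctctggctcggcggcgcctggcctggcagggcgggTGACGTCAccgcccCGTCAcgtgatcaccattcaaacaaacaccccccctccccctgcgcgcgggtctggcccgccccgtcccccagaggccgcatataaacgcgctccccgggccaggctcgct
DUSP6, chr12:89352502-89352751, minus strand: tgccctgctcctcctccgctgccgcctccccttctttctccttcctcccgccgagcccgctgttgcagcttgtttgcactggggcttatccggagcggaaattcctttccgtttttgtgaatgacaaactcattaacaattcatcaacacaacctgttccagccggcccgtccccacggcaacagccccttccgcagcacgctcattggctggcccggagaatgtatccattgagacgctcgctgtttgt
DUSP14, chr17:37489641-37489890, plus strand: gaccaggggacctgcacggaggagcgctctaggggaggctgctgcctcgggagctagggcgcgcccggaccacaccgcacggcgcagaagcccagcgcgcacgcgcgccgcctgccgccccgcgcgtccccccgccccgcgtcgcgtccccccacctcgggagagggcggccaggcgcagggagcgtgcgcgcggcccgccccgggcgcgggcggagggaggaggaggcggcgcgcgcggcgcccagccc
SPRY4, chr5:142324248-142324497, minus strand: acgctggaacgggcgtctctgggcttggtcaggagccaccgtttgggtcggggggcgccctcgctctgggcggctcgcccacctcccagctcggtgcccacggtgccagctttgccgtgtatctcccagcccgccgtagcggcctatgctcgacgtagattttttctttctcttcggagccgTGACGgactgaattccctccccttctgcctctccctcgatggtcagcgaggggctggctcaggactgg

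The full CRE, TGACGTCA, was present in the window of DUSP1, its first base 125 bases before the start, and in no other member window, whereas 1.63% of 34943 promoter windows of the same length hold it. DUSP1 also had TGACG cores outside it that begin 172 and 111 bases before the start, and SPRY4 had a core that begins 68 bases before the start. Cores, which include those within a full CRE, were in 3 of the 11 member windows (DUSP1, SPRY2 and SPRY4) and in 21.2% of all windows. DUSP6 and DUSP14, which rose to a like extent, had none in these windows. CCGGAA, a core of sites for ETS factors, was found in 1 member window, that of SPRY2, and in 14.5% of all windows. Both the AP-1 site TGANTCA (6.59% of all windows) and the CArG box bound by serum response factor (1.16%) were in no member window. Both strands were searched. These letters are matches in a short window and do not show that a factor bound.

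Beyond the 10 members, related genes were followed as 7 lists chosen by their role in MAPK signaling. Their counts stand beside the 35.7% of all genes tested that were called higher and the 37.2% called lower, and no list was tested against that background. Of the 5 other genes of the Sprouty and SPRED family, 4 rose, none fell and SPRED3 did not pass, with a median log2 fold change of 1.05. The SPRED proteins bring the RAS inhibitor neurofibromin to the membrane. SPRED1 was at 79.6, 82.4, 93.3 and 95.8 CPM in high glucose, against 36.4, 34.1, 35.0 and 36.8 CPM in low glucose (log2 fold change 1.28, limma adjusted p = 5.45e-11). SPRED2 averaged 62.3 ± 2.36 CPM in high and 26.3 ± 0.623 CPM in low glucose (SD, n = 4 each), with a log2 fold change of 1.21, and SPRY1 averaged 7.37 ± 0.976 CPM in high and 3.05 ± 0.574 CPM in low glucose (SD, n = 4 each), with a log2 fold change of 1.05 (0.62 at a pseudocount of 5). SPRY2 was thus the only one of the 7 genes of this family, members included, that was called lower, and that call rests on the scaling as given above.

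Of the 3 other classical MAPK phosphatases, DUSP9 was listed at 0 in all 8 libraries, DUSP2 fell and DUSP8 rose. DUSP2, a nuclear phosphatase of low signal in these cells, was at 0.607, 0.501, 0.382 and 0.450 CPM in high glucose, against 2.55, 3.26, 2.71 and 2.48 CPM in low glucose (log2 fold change -1.33, adjusted p = 4.10e-07, with -2.29 at a pseudocount of 0.1 and -0.50 at a pseudocount of 5), and DUSP8, which acts on JNK and p38, averaged 12.3 ± 1.33 CPM in high and 7.85 ± 0.234 CPM in low glucose (log2 fold change 0.58, adjusted p = 1.23e-04, both by limma). Among 10 measured genes of the atypical and other dual-specificity phosphatases, 5 rose, 3 fell and 2 did not pass, with DUSP3 (log2 fold change 0.40, or 0.64 with libraries rescaled to the same total) higher and DUSP15 (-1.19) and DUSP12 (-0.75) lower. For the 13 other brakes on receptor and RAS signaling, 6 rose, 6 fell and 1 did not pass. The ubiquitin ligase CBLB (-0.75) and the RAS GTPase-activating protein RASA3 (-0.82) fell, whereas RASAL2 (0.90), another protein of that kind, rose.

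The components of the kinase cascades were split as well. Of 21 genes of the RAS-ERK cascade, 11 rose, 7 fell and 3 did not pass (median 0.21), with the phosphatase PTPN11 (SHP2) higher at a log2 fold change of 0.86 and the kinases ARAF (-1.16) and MAPK7 (ERK5, -1.31) lower. Of 18 genes of the JNK and p38 cascades, 10 rose, 3 fell and 5 did not pass (median 0.24), with the kinase MAP3K1 (1.23) higher. The count of rises includes MAPK13, at 0.802 to 1.53 CPM in high and at most 0.217 CPM in low glucose. It reached the filter only through the high-glucose libraries, so it could not have been counted as a fall. MAP2K4 (0.28) and MAP2K7 (-1.09), both activators of JNK, were called in opposite directions, and MAPKAPK3 (-0.86), a kinase downstream of p38, was lower. All 10 output genes of ERK signaling were called, 7 as higher and 3 as lower, with a median of 0.59. FOSL1, an AP-1 subunit, averaged 206 ± 4.32 CPM in high and 89.1 ± 0.955 CPM in low glucose (SD, n = 4 each, log2 fold change 1.20, limma adjusted p = 2.45e-13), and IER3 (1.09) and cyclin D1 (CCND1, 0.88) rose too. Transcript levels do not report the phosphorylation of a kinase, which was not measured in these libraries.

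**Figure D4:**
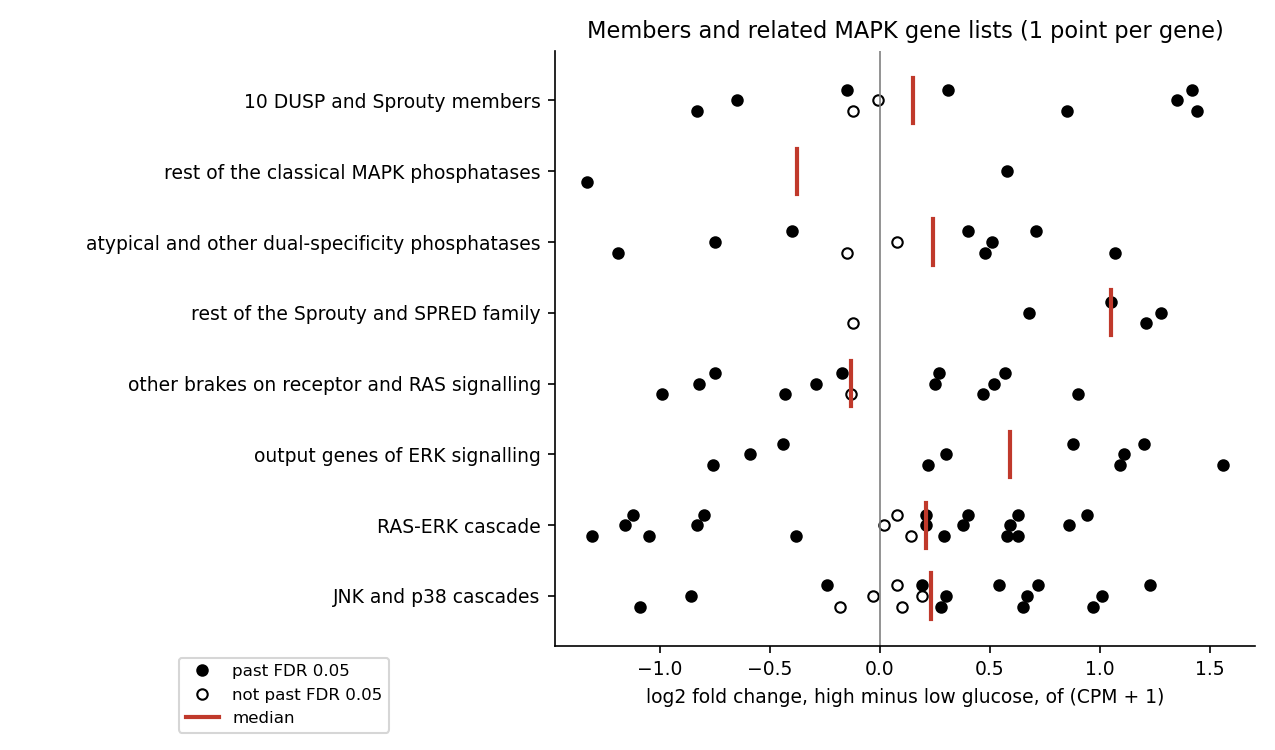
Log2 fold change (log2(CPM + 1), high over low glucose) of the 10 members and of the measured genes of 7 related lists, 1 point per gene, filled where it passed an FDR of 0.05, with the list median in red. The medians run from -0.38 for the 2 measured classical phosphatases to 1.05 for the rest of the Sprouty and SPRED family.

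The columns of the table summed to 1017015 to 1036274 in high glucose and 1205567 to 1229021 in low glucose, and the estimated depth was 10244887 to 11956682 and 10323799 to 11126087 reads per library. At this depth a member had 93 to 1643 estimated reads in a library. The line was checked against markers. All 4 mesenchymal markers were detected, with a summed level of 33179 to 34591 CPM in high and 55218 to 59077 CPM in low glucose. Most of that sum was FN1, at means of 24880 CPM in high and 42759 CPM in low glucose. With the deposited scaling all 4 were called lower, as were 37.2% of all genes. For SPARC (log2 fold change -0.15) and COL1A1 (-0.21) the fall was small. The markers were not followed under the alternative scalings, on which the direction of small changes depended. VIM averaged 3733 ± 140 CPM in high and 8420 ± 132 CPM in low glucose (SD, n = 4 each), while ESR1 and PGR summed to at most 0.36 CPM in a library. Of 5 luminal and epithelial markers EPCAM was listed at 0 in every library, and the 5 summed to 110 to 128 CPM in high and 274 to 291 CPM in low glucose, nearly all from KRT8 and KRT18. The 3 endothelial markers (PECAM1, VWF and CDH5, of which 1 was at 0 in all libraries) summed to 6.21 to 7.80 CPM in high and 1.95 to 2.77 CPM in low glucose, and the 2 immune markers with a row (CD68 and PTPRC) to 91.9 to 96.6 CPM in high and 180 to 189 CPM in low glucose, nearly all from CD68. PTPRC reached at most 1.08 CPM. The part of these markers in the values of the members was not tested. The labels do not say whether the 4 libraries of a group came from separate experiments, and p values therefore cover only how these libraries varied, which may be technical.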

How the data were processed

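RNA-Seq of 8 Hs578T libraries (4 in high and 4 in low glucose, by the treatment label) was deposited by the authors as 1 table of normalized signal with 21077 rows. In their processing notes the submitters list edgeR and the hg38 build. CPM with TMM factors are described in the study for other libraries, and the signal was read as such. Every column summed to more than 1000000 (1017015 to 1229021), and the table does not say on which libraries any factors were computed. That reading of the signal was therefore not settled. The sources used give no aligner, counting program or strand use for these libraries. For other libraries the study names TopHat, another genome build and a stranded kit, which were not assumed here. The most frequent positive value of a column was taken as 1 read. Of values below 50 reads, 71.3% to 73.7% were whole within 0.005 read, so no count model was used.

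The 15570 genes that reached 0.5 CPM in 2 or more libraries were log transformed with a pseudocount of 1 and compared (high minus low glucose) with limma 3.58.1 under R 4.3.3, using a variance trend, without covariates, and Benjamini-Hochberg adjustment over all genes (FDR under 0.05). The fit was also run on simulated data in which few genes changed, unlike these data, so that run does not vouch for the calls made here. The pseudocount understates changes of low genes. The members and the 7 lists were chosen with earlier results of these data known. Named genes were all members and, from each list, up to 3 called genes with the smallest p and a mean of at least 1 CPM in a group. Marker genes, POC1B, SPRED3, MAP2K4, MAPK13 and the genes of the last section were named after their values were seen. For symbols listed more than once, the most abundant entry was taken. Alternatives were the pseudocount, the filter, the scaling, the variance prior, a replicate block and the omission of each library. No 2 libraries of a group were alike within sampling noise (mean chi-square per gene 1.60 to 5.74, against 1 for sampling alone). High-glucose replicates 1 and 2 (1.60) and replicates 3 and 4 (2.17) were closer to each other than across these pairs (3.21 to 5.74). Low-glucose pairs ran from 1.62 to 2.92.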

Additional observations from a re-analysis of the deposited data

Results flagged for a closer look

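Of 60 groups of 4 libraries screened over 30 named genes, 3 had a library that stood far from the others by Dixon's criterion at the 95% level, which chance alone meets in about 1 group in 20. DUSP10 was at 27.9 CPM in high-glucose replicate 2, against 31.6 to 32.4 CPM in the other high-glucose libraries. SPRY1 was at 5.91 CPM in the same library, against 7.71 to 7.93 CPM in the others, and RASA3 was at 49.2 CPM in high-glucose replicate 3, against 45.5 to 45.8 CPM in the others. All 3 genes kept their direction and their call without the library in question.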

How the results depend on the processing

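Across 15 alternatives for each of the 10 members, DUSP1, DUSP4, DUSP6, DUSP10, DUSP14, DUSP16 and SPRY4 kept their direction and their call. After rescaling of all libraries to equal totals, DUSP5 turned to 0.12 (adjusted p = 0.120), DUSP7 to 0.23 (adjusted p = 0.00499) and SPRY2 to 0.09 (adjusted p = 0.0930), while DUSP4 came to 0.55 and DUSP10 to -0.41. With quantile normalization DUSP7 turned to 0.09 (adjusted p = 0.189) and SPRY2 went to -0.06 (adjusted p = 0.300). When each library was left out in turn, the value of DUSP7 ran from -0.04 to 0.03 and never passed. The 20 genes that the naming rule took from the lists kept their direction and call under all 15 alternatives, but the sizes of low ones followed the pseudocount, as for DUSP2 (-2.29 to -0.50). The numbers of genes called higher and lower, over all genes, the members and each of the 7 lists, stayed within 1.5 times their values under every alternative. Same-numbered libraries deviated together weakly at most (correlation -0.027 to 0.112, against -0.15 to 0.076 for pairs of unlike number). With the replicate block 5602 genes were higher and 5892 lower, with 8 members called as without it. Depth limits precision most for DUSP16, down to 93 estimated reads in a library.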

Other observations

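Genes that are commonly read as outputs of the same pathway differed in direction. The immediate early transcription factor EGR1 was at 10.7, 11.4, 12.2 and 9.28 CPM in high glucose, against 2.10, 3.94, 3.58 and 2.71 CPM in low glucose (log2 fold change 1.56, limma adjusted p = 1.72e-07). The receptor EPHA2 averaged 211 ± 17.9 CPM in high and 96.7 ± 5.05 CPM in low glucose (SD, n = 4 each). In contrast, PHLDA1 averaged 396 ± 2.89 CPM in high and 671 ± 24.7 CPM in low glucose, ETV5 148 ± 3.73 CPM in high and 224 ± 3.61 CPM in low glucose, and ETV4 13.7 ± 1.37 CPM in high and 18.9 ± 0.998 CPM in low glucose (SD, n = 4 each), all lower. ETV1, the other gene of their ETS factor group, went the other way and averaged 97.2 ± 5.48 CPM in high and 78.5 ± 2.43 CPM in low glucose (SD, n = 4 each, log2 fold change 0.30, limma adjusted p = 4.17e-05). The kinase gene MAPK3 (ERK1) fell to 28.5 ± 1.28 CPM in high glucose, against 60.5 ± 5.34 CPM in low glucose (limma adjusted p = 1.03e-09, SD, n = 4 each). HRAS fell to 36.7 ± 5.42 CPM in high glucose, against 80.7 ± 5.76 CPM in low glucose (limma adjusted p = 1.11e-08, SD, n = 4 each).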
